A study of Mus musculus with 6 samples.

Results

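The genes described here are 29 genes of the synaptic vesicle and of the machinery that releases transmitter, among 18193 genes measured in mouse hippocampus. They were chosen by name, and each was read from the probe sets annotated to it alone, using the brightest of them, averaged over all 6 arrays. All 29 had at least 1 such probe set, with 76 in all, and 27 had a mean log2 value of 6 or more. Syn3 and Syt2 lay below that level.

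The study set 3 mice of genotype Dp(11)17/+ against 3 mice of genotype +/+, with 1 array of hippocampal RNA per mouse. Dp(11)17/+ mice have a duplicated stretch on 1 of their chromosomes 11 and, by the series title, model Potocki-Lupski syndrome. Both groups share the C57BL/6-Tyr c-Brd background, and the labels give every mouse as male and 11 to 14 weeks old. None of the 29 genes lies in the duplicated segment. Vamp2 and Doc2b lie on the same chromosome, with 167 and 500 annotated genes between them and the segment in the gene table.

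Chemical synapses store transmitter in vesicles that synapsins hold in a reserve near the release site. At the active zone, scaffold proteins such as Bassoon, Piccolo and RIM place vesicles beside calcium channels, and Munc13 proteins prepare them for fusion. Fusion itself is driven by SNARE proteins on the vesicle and on the plasma membrane, held by complexins and triggered when synaptotagmins bind calcium. Granule cells of the dentate gyrus, pyramidal cells of the CA fields and interneurons of the hippocampus use partly different members of these families.

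Some libraries stood apart and are described before the genes. Rai1, a gene inside the duplicated segment, had log2 values of 7.386, 7.304 and 6.996 in Dp(11)17/+ replicates 1 to 3, against 6.79, 6.86 and 6.86 in the +/+ mice. Dp(11)17/+ replicate 1, labelled male, had a log2 value of 9.13 for Xist, the RNA of the inactive X chromosome, against 3.06 to 3.69 in the other 5 mice, and of 2.48 for the Y-linked Eif2s3y, against 5.41 to 6.01. Its log2 value for the Y-linked Kdm5d was 2.47, against 4.70 to 5.06. These sex-linked genes go against its label. Markers of neighbouring brain regions and of some hippocampal fields differed between the mice. The mean log2 value over 6 markers of dentate granule cells was 4.99, 6.98 and 3.58 in Dp(11)17/+ replicates 1 to 3, against 6.01 to 6.32 in the +/+ mice, and all 6 markers lay below every +/+ mouse in Dp(11)17/+ replicates 1 and 3. The mean over 9 of 11 striatal markers was 6.95, 5.61 and 7.87 in Dp(11)17/+ mice, against 5.55 to 6.21 in +/+ mice. In Dp(11)17/+ replicate 3 all 9 of these, and all 11 markers of thalamus or habenula, lay above every +/+ mouse, and the 6 of 7 CA1 markers measured lay below. All 6 measured oligodendrocyte markers also lay above every +/+ mouse in Dp(11)17/+ replicate 3, by 0.57 on average over the +/+ mean. The mean over 5 choroid plexus markers was 7.07, 4.99 and 7.17 in Dp(11)17/+ mice, against 7.96, 4.77 and 4.92 in +/+ mice. The CA1 marker Wfs1 had log2 values of 9.19, 9.56 and 7.56 in Dp(11)17/+ mice, against 8.92, 9.38 and 9.09 in +/+ mice. In Dp(11)17/+ replicate 1 all 5 microglial markers lay above every +/+ mouse, by 0.40 on average over the +/+ mean. The mean over 4 CA3 markers differed little, at -0.21, -0.08 and 0.01 from the +/+ mean in Dp(11)17/+ replicates 1 to 3. Means of 6 or more were reached by 3 of 6 dentate, 6 of 9 striatal and 5 of 11 thalamic or habenular markers. Among CA3 markers 1 of 4 reached that level, and among choroid plexus markers 1 of 5. In bulk tissue, fewer cells of a type and less RNA per cell cannot be told apart.

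**Figure D1:**
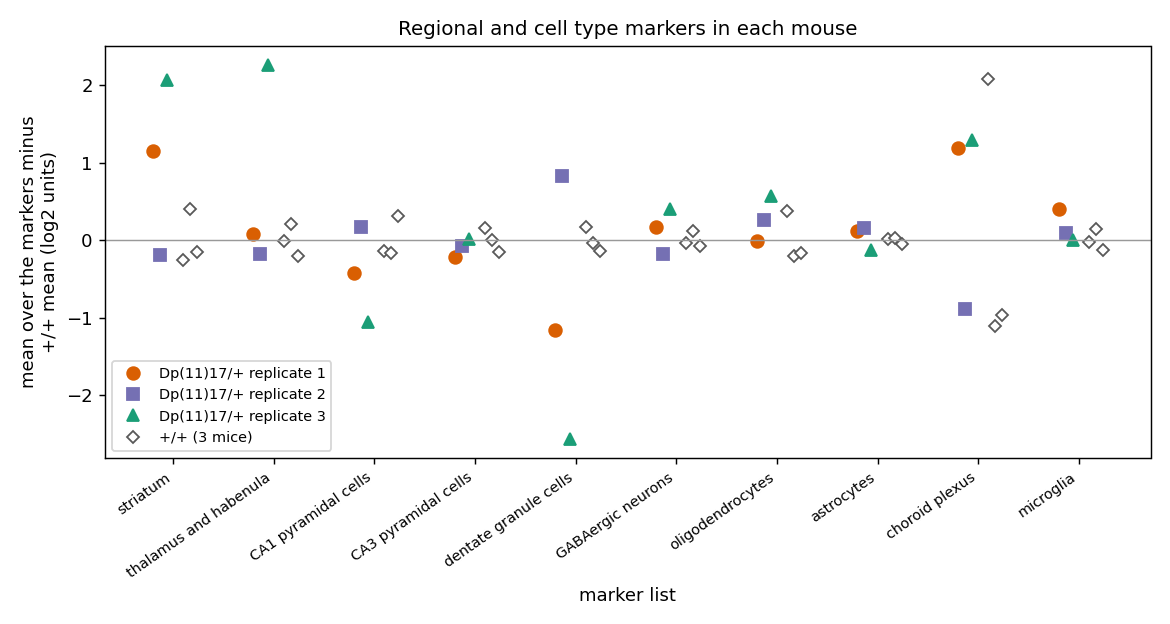
Mean log2 value over each list of regional or cell type markers, minus the mean of the 3 +/+ mice, by mouse. Filled symbols are the 3 Dp(11)17/+ mice and open diamonds the 3 +/+ mice. Dp(11)17/+ replicate 3 lay 2.07 above the +/+ mean for striatum and at -2.57 for dentate granule cells, and Dp(11)17/+ replicate 2 lay 0.83 above it for dentate granule cells.

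Promoter sequences were looked at for members that the results below turn on. They are the 250 bases before the annotated start, from RefSeq on GRCm38.p6, where 21 of the 29 genes had an entry. Unc13a is shown because its probe set had the smallest p of the 29. Stx1a and Rims1 are shown because, by their brightest probe sets, the mice with the highest, second and lowest value were the same in both. Syn1 is shown because it held 2 elements found in none of the other members with an entry. Capitals mark 4 motifs searched on both strands: the left part of the element bound by the repressor REST (TTCAGCACC), the cyclic AMP response element (TGACGTCA), the GC box (GGGCGG) and the EGR site (GCGTGGGCG).
Syn1: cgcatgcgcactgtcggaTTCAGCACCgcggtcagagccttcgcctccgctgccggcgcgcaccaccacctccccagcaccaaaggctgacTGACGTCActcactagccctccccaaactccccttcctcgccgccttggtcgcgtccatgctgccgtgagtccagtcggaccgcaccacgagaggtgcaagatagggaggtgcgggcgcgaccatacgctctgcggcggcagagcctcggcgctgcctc
Unc13a: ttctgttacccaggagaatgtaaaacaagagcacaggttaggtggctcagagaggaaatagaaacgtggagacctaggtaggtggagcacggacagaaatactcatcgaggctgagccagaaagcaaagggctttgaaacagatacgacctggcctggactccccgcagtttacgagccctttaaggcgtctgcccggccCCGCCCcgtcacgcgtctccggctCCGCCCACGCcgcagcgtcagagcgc
Stx1a: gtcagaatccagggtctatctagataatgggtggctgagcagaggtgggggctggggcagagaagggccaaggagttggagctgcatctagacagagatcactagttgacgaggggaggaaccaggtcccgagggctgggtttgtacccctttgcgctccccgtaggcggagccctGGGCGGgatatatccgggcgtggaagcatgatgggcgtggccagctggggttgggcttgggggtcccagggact
Rims1: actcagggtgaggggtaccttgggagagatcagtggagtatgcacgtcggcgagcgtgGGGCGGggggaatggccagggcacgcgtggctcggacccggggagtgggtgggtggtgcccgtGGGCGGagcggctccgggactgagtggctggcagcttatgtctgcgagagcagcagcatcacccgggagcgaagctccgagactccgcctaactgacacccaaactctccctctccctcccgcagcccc
Syn1 (minus strand of chrX:20920919-20921168) held the REST letters at 232 to 224 bases before the start and the cyclic AMP response element at 159 to 152. Unc13a (minus strand of chr8:71671758-71672007) held 2 GC boxes and an EGR site, all on the opposite strand, and the GC box nearer the start overlaps the EGR site. Stx1a (plus strand of chr5:135023232-135023481) held 1 GC box and Rims1 (minus strand of chr1:22806159-22806408) held 2. The 21 members have 32 promoters in the table. The GC box stood in 17 of these 32 (53.1%), against 32.7% of all 32851 promoters, and in at least 1 promoter of 16 of the 21 members, against 35.4% of all 27025 genes. The other motifs stood in 1 of the 32 promoters each, against 0.301% (REST), 1.55% (cyclic AMP response element) and 0.536% (EGR) of all promoters. These matches describe letters, not binding.

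The comparison of Dp(11)17/+ with +/+ mice asked whether the release machinery differs with the duplication. No member passed the test. Neither did Rai1, inside the duplicated segment, with a log2 fold change of 0.39. Its unadjusted p by limma was 0.0108 and its adjusted p 0.994. With 3 mice per group, a gene that does not pass may still differ. Of the 29 genes, 13 were higher and 16 lower in Dp(11)17/+ mice, with a median log2 fold change of -0.04, against -0.02 over all 18193 genes, of which 58.3% were lower. Limma called 0 of the 29 after Benjamini-Hochberg adjustment over all 45037 probe sets, with a smallest adjusted p of 0.994, where 0% of all probe sets were called. One gene, Unc13a, had an unadjusted p under 0.05, or 3.45% of the 29 against 3.17% of all genes (1.15% higher in Dp(11)17/+ mice). The same gene was the 1 member whose groups did not overlap, against 8.29% of all genes in either direction. By direction, 1 member lay wholly above, against 2.7% of all genes, and 0 wholly below, against 5.59%. Where a share exceeds that of all genes it rests on Unc13a alone, and none sets the members as a group above the background.

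**Figure D2:**
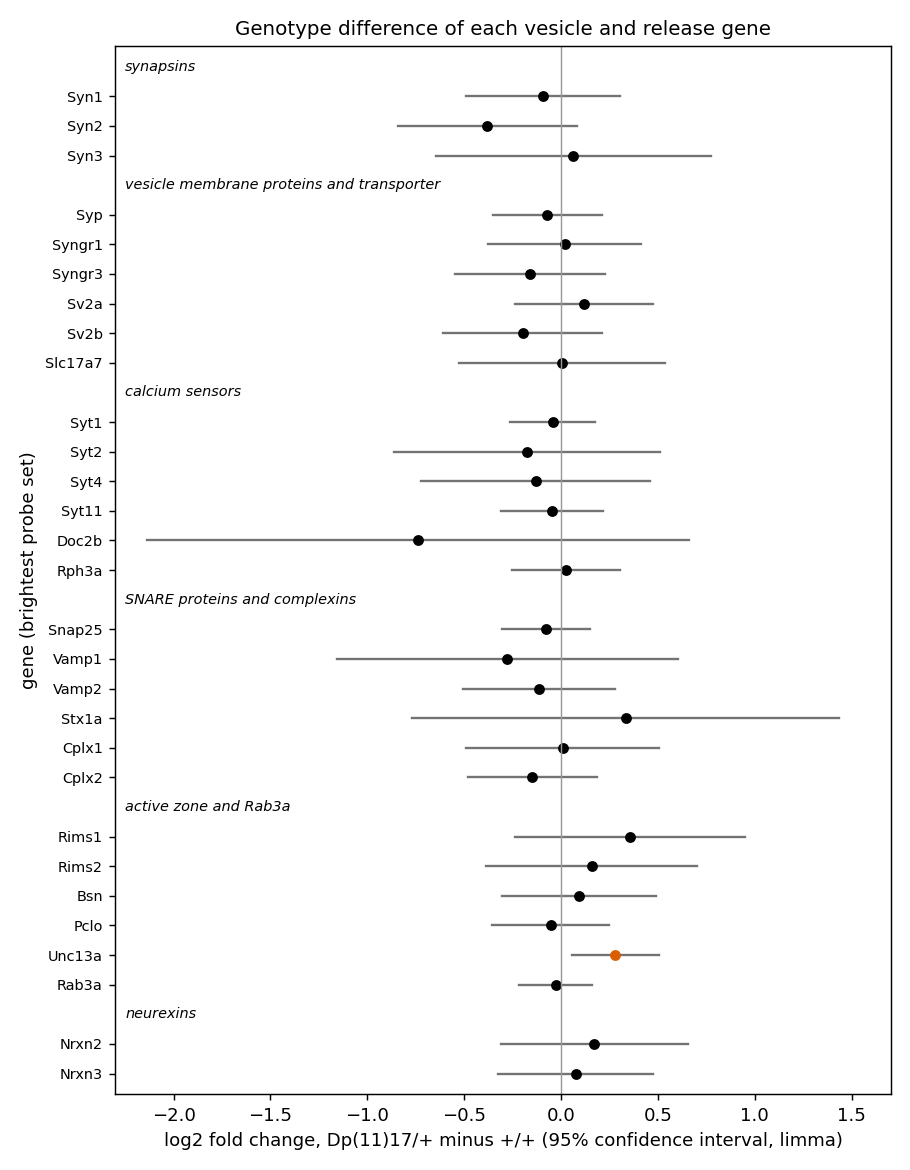
Log2 fold change of each of the 29 genes, Dp(11)17/+ minus +/+, with its 95% confidence interval from limma (n = 3 mice per group), grouped by role. The interval of Unc13a (orange) runs from 0.06 to 0.50, before any adjustment over genes, and those of the other 28 genes hold 0, the widest being that of Doc2b at -2.14 to 0.66.

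In most of the 29 genes the spread among the Dp(11)17/+ mice exceeded the difference between the genotype means. The range over the 6 arrays had a median of 0.63 log2 units over the 29 genes, against 0.37 over all genes and 0.38 over the 7104 genes with a mean of 6 or more. In 5 of the 29 genes it reached 1 log2 unit, which is 2-fold, against 6.31% of all genes and 7.91% of those with a mean of 6 or more. In 28 of the 29 genes the range within the Dp(11)17/+ mice alone was wider than the difference between genotypes, against 86.6% of all genes. The exception was Unc13a. A range of 3 single values tends to exceed a difference of means, as the share of all genes shows. Within the +/+ mice the range was narrower than the genotype difference in Unc13a, Syn2, Doc2b, Rims1, Rims2 and Cplx2. Dp(11)17/+ replicate 2 had the lowest of the 6 values in 14 of the 29 genes (48.3%), against 18.6% of all genes and 23.2% of those with a mean of 6 or more. Dp(11)17/+ replicate 3 had the highest in 10 (34.5%), against 18.4% and 24.4%. A +/+ mouse, replicate 3, had the highest in 11 (37.9%), against 26.1% and 17.9%. With the mean of all probe sets of a gene these counts were, in the same order, 10, 6 and 9. With the probe set of largest variance they were 9, 7 and 10. In 12 genes replicates 2 and 3 of Dp(11)17/+ lay on opposite sides of all 3 +/+ mice, against 15.1% of all genes. These were Syn3, Syngr1, Syt1, Syt2, Doc2b, Snap25, Vamp1, Stx1a, Cplx1, Rims1, Rims2 and Rab3a. The same 2 mice lay at the 2 ends of the dentate markers, and the part of regional composition in these values was not tested.

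**Figure D3:**
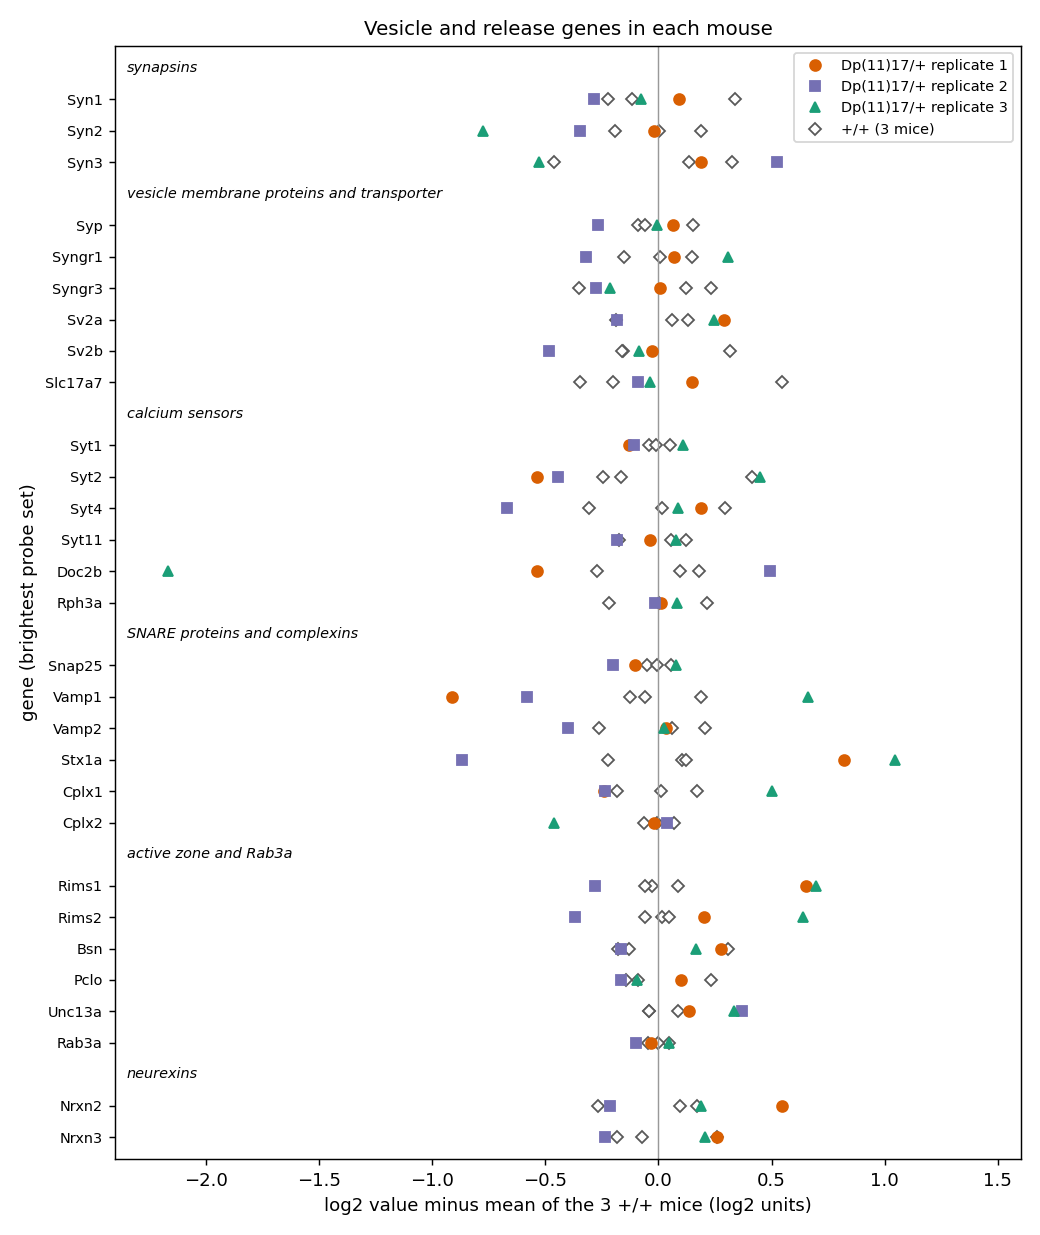
Log2 value of each of the 29 genes in each mouse, minus the mean of the 3 +/+ mice, grouped by role. Filled symbols are the 3 Dp(11)17/+ mice and open diamonds the 3 +/+ mice. Doc2b, Stx1a and Vamp1 spread widest, by 2.66, 1.92 and 1.57 log2 units over the 6 arrays, and Rab3a least, by 0.15.

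The synapsins coat vesicles and tie them to the cytoskeleton. Syn2 had log2 values of 9.66, 9.34 and 8.91 in Dp(11)17/+ replicates 1 to 3, against 9.49, 9.68 and 9.87 in +/+ replicates 1 to 3. Replicates 2 and 3 of Dp(11)17/+ lay below all +/+ mice and replicate 1 lay among them. The log2 fold change was -0.38 (SE 0.20, 95% interval -0.84 to 0.08), with an unadjusted p of 0.0933 and an adjusted p of 0.994 by limma. All 4 probe sets of Syn2 with a mean of 6 or more gave a negative log2 fold change, between -0.64 and -0.19. Without Dp(11)17/+ replicate 1, whose sex goes against its label, it was -0.56 with an unadjusted p of 0.0185, and without Dp(11)17/+ replicate 3 it was -0.18. Syn3, a dim member, had log2 values of 5.99, 6.32 and 5.27 in Dp(11)17/+ mice, against 5.94, 6.12 and 5.34 in +/+ mice, so its range of 1.05 lay mostly within each group. Its dimmest probe set, with log2 values under 4, had a log2 fold change of -0.26 and an unadjusted p of 0.0311, while the other 2 gave 0.06 and 0.13. Syn1, the X-linked synapsin, had a log2 fold change of -0.09 (SE 0.17).

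Proteins of the vesicle membrane showed small differences. Among Syp (synaptophysin), the synaptogyrins Syngr1 and Syngr3, the vesicle glycoproteins Sv2a and Sv2b and the glutamate transporter Slc17a7, 3 were higher and 3 lower, with log2 fold changes between -0.20 and 0.12. Syp stood at -0.07 (SE 0.12) and Syngr1 at 0.02 (SE 0.17) on this scale. Sv2b had log2 values of 10.11, 9.66 and 10.06 in Dp(11)17/+ mice, against 9.99, 9.98 and 10.46 in +/+ mice, and its log2 fold change was -0.20 (SE 0.17). Its lowest value was in Dp(11)17/+ replicate 2 and its highest in +/+ replicate 3, and its second bright probe set gave -0.16. Sv2a, the binding site of the antiepileptic drug levetiracetam, had log2 values of 9.47, 8.99 and 9.42 in Dp(11)17/+ mice, against 9.24, 9.31 and 8.99 in +/+ mice. Replicates 1 and 3 of Dp(11)17/+ lay above all +/+ mice and replicate 2 at their low end. Syngr3 had log2 values of 8.59, 8.30 and 8.37 in Dp(11)17/+ mice, against 8.23, 8.70 and 8.81 in +/+ mice, and the Dp(11)17/+ values lay inside the range of +/+. Slc17a7, which loads glutamate into vesicles of cortical and hippocampal excitatory neurons, spread by 0.24 over Dp(11)17/+ mice and by 0.89 over +/+ mice, and its log2 fold change of 0.01 (SE 0.23) took the opposite sign when arrays were centred on their medians.

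Of the 6 calcium sensors and their relatives 1 was higher and 5 were lower, and they held the member with the widest range. Doc2b, a sensor of spontaneous and asynchronous release, had log2 values of 7.50, 8.52 and 5.86 in Dp(11)17/+ replicates 1 to 3, against 7.76, 8.21 and 8.13 in +/+ mice. Replicate 2 lay above all +/+ mice and replicates 1 and 3 lay below them, so that 6.32-fold separated the ends of the 6 arrays, both of them Dp(11)17/+ mice. The log2 fold change was -0.74 (SE 0.59, 95% interval -2.14 to 0.66, unadjusted p = 0.254 by limma). It was -0.02 without Dp(11)17/+ replicate 3 and -1.35 without Dp(11)17/+ replicate 2. The dimmer probe set of Doc2b gave -0.47 and put the same 2 Dp(11)17/+ mice furthest apart within their group, at 5.49 in replicate 2 and 3.99 in replicate 3, though +/+ replicate 2 lay highest at 5.53. The order of the Dp(11)17/+ mice for Doc2b is also that of the dentate marker Lct, with log2 values of 6.22, 8.52 and 4.18 in these mice, against 7.68, 7.53 and 7.14 in +/+ mice. This order was not particular to dentate markers. The mean over the CA1 markers had it, at 7.24, 7.84 and 6.60, and so had that over the astrocyte markers, at 9.06, 9.09 and 8.81. The means over the other lists outside the dentate did not.

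Syt1, the main fast calcium sensor of forebrain synapses, had a range of 0.24 and a log2 fold change of -0.04 (SE 0.09) by its brightest probe set. Its other 2 bright probe sets gave the opposite sign, 0.20 and 0.13, with ranges of 0.57 and 1.14. For Syt11 the log2 fold change was -0.05 (SE 0.11), and its 5 probe sets with a mean of 6 or more gave between -0.06 and -0.01. For Syt4, which is induced by activity, the log2 fold change was -0.13 (SE 0.25). For Rph3a, the Rab3 effector rabphilin, it was 0.03 (SE 0.12). Syt2, the fast sensor of hindbrain synapses and of parvalbumin interneurons, had log2 values of 4.86, 4.96 and 5.85 in Dp(11)17/+ mice, against 5.81, 5.23 and 5.15 in +/+ mice. At this dim level its log2 fold change of -0.18 (SE 0.29) had a 95% interval of -0.86 to 0.51.

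Of the 4 SNARE proteins and 2 complexins 2 were higher and 4 lower. Stx1a, the syntaxin of the plasma membrane, had log2 values of 10.86, 9.17 and 11.09 in Dp(11)17/+ replicates 1 to 3, against 10.15, 10.16 and 9.82 in +/+ mice. Replicates 1 and 3 of Dp(11)17/+ lay above all +/+ mice and replicate 2 below them, a 3.78-fold range. The log2 fold change was 0.33 (SE 0.47, 95% interval -0.77 to 1.43, unadjusted p = 0.499 by limma). The second probe set repeated this pattern with 8.24, 6.24 and 8.40 in Dp(11)17/+ mice, against 7.21, 7.49 and 7.16 in +/+ mice. Without Dp(11)17/+ replicate 2 the log2 fold change was 0.93 (unadjusted p = 0.000561, adjusted p = 0.575), without replicate 3 it was -0.02, and without replicate 1 it was 0.09. Snap25, the partner of syntaxin, had log2 values of 11.30, 11.20 and 11.48 in Dp(11)17/+ mice, against 11.35, 11.40 and 11.46 in +/+ mice, a range of 0.28 and a log2 fold change of -0.08 (SE 0.10).

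Vamp1 and Vamp2 are the SNARE proteins of the vesicle, Vamp2 prevailing in the forebrain and Vamp1 in the hindbrain and spinal cord. Vamp1 had log2 values of 7.43, 7.76 and 9.002 in Dp(11)17/+ replicates 1 to 3, against 8.53, 8.22 and 8.28 in +/+ mice. Replicate 3 lay above all +/+ mice and replicates 1 and 2 below them. Its log2 fold change was -0.28 (SE 0.37), and -0.75 without Dp(11)17/+ replicate 3 (unadjusted p = 0.00212, adjusted p = 0.99998 by limma). Leaving out replicate 3 parts the groups by construction. Without Dp(11)17/+ replicate 1 the log2 fold change of Vamp1 was 0.04 (unadjusted p = 0.913 by limma). Its second probe set had log2 values between 3.46 and 4.19, and gave 0.005. For Vamp2 the log2 fold change was -0.11 (SE 0.17) and the range 0.61. The complexins clamp the SNARE complex before calcium enters. For Cplx1 the log2 fold change was 0.01 (SE 0.21), and it took the opposite sign with quantile normalization again and with centring. Cplx2 had log2 values of 10.58, 10.64 and 10.13 in Dp(11)17/+ mice, against 10.54, 10.59 and 10.67 in +/+ mice, with only Dp(11)17/+ replicate 3 outside the narrow range of the others. Its log2 fold change was -0.15 (SE 0.14), and its other 2 bright probe sets gave -0.14 and 0.38, so they disagreed.

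Vamp1, Syt2 and Cplx1 shared 3 places in the order of mice, noticed after their values were seen. In each, Dp(11)17/+ replicate 3 was highest, +/+ replicate 1 second and Dp(11)17/+ replicate 1 lowest, an order that 0.929% of all genes had. The order was taken from these 3 genes, so that share is no baseline for them. In Cplx1 the lowest place was close, at 11.293 in Dp(11)17/+ replicate 1 and 11.296 in replicate 2. Its other 2 bright probe sets broke the order. In 1 of them Dp(11)17/+ replicate 2 was lowest, and in the other +/+ replicate 3 was second, at 8.06 against 7.62 in +/+ replicate 1. The dim second probe set of Vamp1 broke the order too. Of the 2 dimmer probe sets of Syt2, 1 broke it and 1 kept it. Pvalb, the marker of parvalbumin interneurons, had the shared order too, at 7.75, 8.21 and 9.30 in Dp(11)17/+ mice, against 8.87, 7.96 and 8.23 in +/+ mice. It was 1 of 6 measured markers of GABAergic neurons to do so, and Npy of that list had its second highest value, 9.51, in Dp(11)17/+ replicate 1. Stx1a, Rims1 and Rims2 shared another order at these 3 places, with Dp(11)17/+ replicate 3 highest, replicate 1 second and replicate 2 lowest, which 1.87% of all genes had. It too was taken from the genes that have it, by their brightest probe sets. The second probe set of Stx1a kept this order, while the other bright ones of Rims1 and Rims2 had +/+ replicate 3 lowest. Of the 9 measured striatal markers 1, Ppp1r1b, had this second order, and Penk was highest in Dp(11)17/+ replicate 1, at 10.12, and lowest in +/+ replicate 3, at 6.68.

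**Figure D4:**
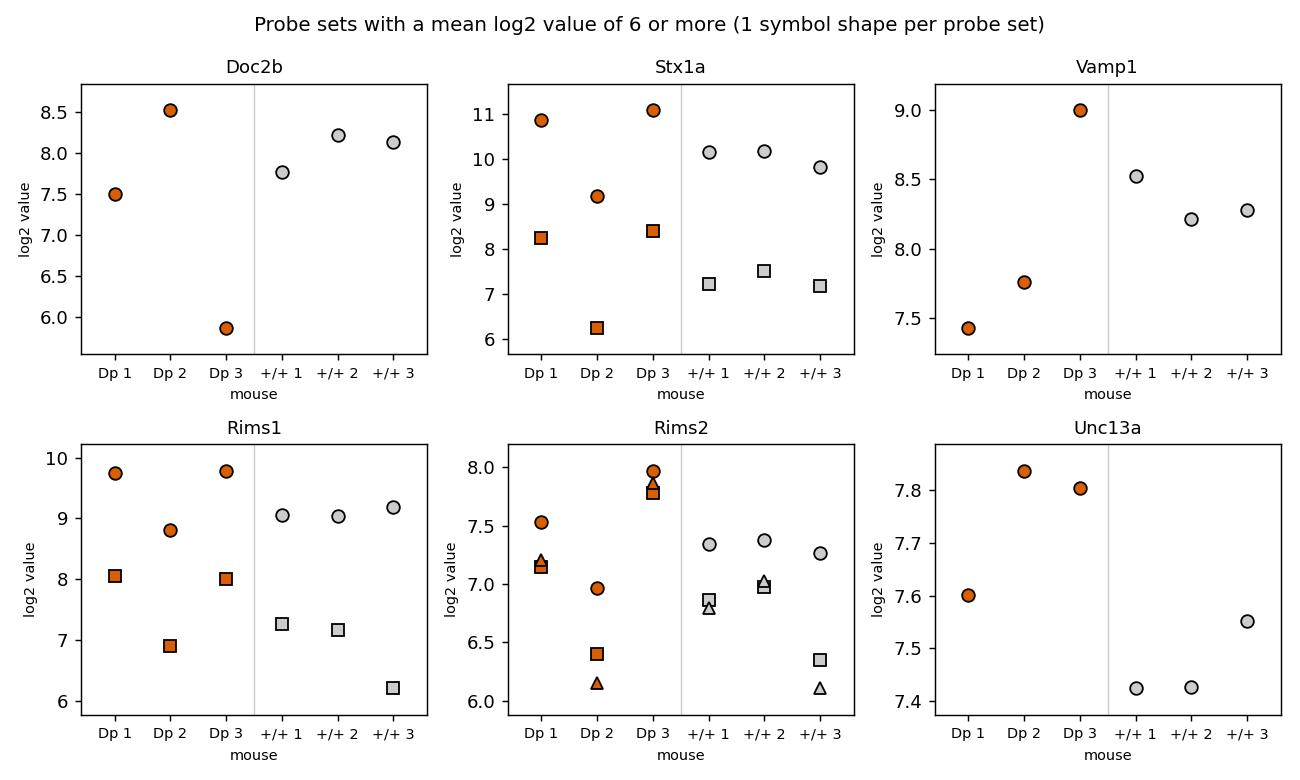
Log2 values of 6 genes in each mouse, with 1 symbol shape per probe set whose mean is 6 or more (Dp is Dp(11)17/+, orange, and +/+ is grey). Each panel has its own log2 axis that does not start at 0. Both probe sets of Stx1a put Dp(11)17/+ replicate 2 lowest, at 9.17 and 6.24, and Unc13a is the panel in which the groups do not overlap, at 7.60 to 7.84 in Dp(11)17/+ and 7.42 to 7.55 in +/+ mice.

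Of the 6 genes of the active zone, Rab3a included, 4 were higher and 2 lower, and Unc13a had the smallest p of the 29 genes. It encodes Munc13-1, which opens syntaxin and makes vesicles ready to fuse. Its log2 values were 7.60, 7.84 and 7.80 in Dp(11)17/+ replicates 1 to 3, against 7.42, 7.43 and 7.55 in +/+ mice. All 3 Dp(11)17/+ mice lay above all 3 +/+ mice, with the gap between replicate 1 and the highest +/+ mouse the narrowest. The log2 fold change was 0.28 (SE 0.10, 1.21-fold, 95% interval 0.06 to 0.50), with an unadjusted p of 0.0215 and an adjusted p of 0.994 by limma. It stayed between 0.23 and 0.35 with each mouse left out in turn, and the unadjusted p by limma between 0.0105 and 0.0667. Of these fits, only those without Dp(11)17/+ replicate 1 and without +/+ replicate 3 gave an unadjusted p under 0.05. Unc13a had 1 probe set, so no second one could be set beside it.

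Rims1 and Rims2 encode RIM proteins, which bind Rab3, Munc13 and calcium channels. Rims1 had log2 values of 9.74, 8.81 and 9.79 in Dp(11)17/+ mice, against 9.06, 9.03 and 9.18 in +/+ mice. The +/+ mice lay within 0.15 of each other, replicates 1 and 3 of Dp(11)17/+ above them and replicate 2 below. The log2 fold change was 0.35 (SE 0.25, unadjusted p = 0.201), and 0.67 without Dp(11)17/+ replicate 2 (unadjusted p = 0.000309, adjusted p = 0.560 by limma). Leaving out replicate 2 parts the groups by construction. Without Dp(11)17/+ replicate 1 the log2 fold change of Rims1 was 0.21 (unadjusted p = 0.483 by limma). Its second probe set gave 0.78 and put +/+ replicate 3 lowest, at 6.21, below the 6.90 of Dp(11)17/+ replicate 2. Rims2, given in full after its values were seen because its range reached 1.01, had log2 values of 7.53, 6.96 and 7.97 in Dp(11)17/+ mice, against 7.34, 7.38 and 7.27 in +/+ mice. Again replicate 2 lay below and replicates 1 and 3 above all +/+ mice. The differences between Dp(11)17/+ replicates 3 and 2 at its 3 bright probe sets were 1.01, 1.38 and 1.71 log2 units, all of 1 sign, while at the dimmer 2 the lowest value was in +/+ replicate 3. The large scaffolds were steadier, with log2 fold changes of 0.09 (SE 0.17) for Bsn (Bassoon) and -0.05 (SE 0.13) for Pclo (Piccolo). Rab3a, the small GTPase of the vesicle, had the narrowest range of the 29, 0.15, and a log2 fold change of -0.03 (SE 0.08, 95% interval -0.22 to 0.16).

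Neurexins are presynaptic adhesion proteins that bind neuroligins across the cleft. Nrxn2 had log2 values of 9.18, 8.42 and 8.83 in Dp(11)17/+ mice, against 8.37, 8.81 and 8.73 in +/+ mice, and the groups overlapped. Its log2 fold change was 0.17 (SE 0.21), and that of Nrxn3 was 0.08 (SE 0.17), with 4 bright probe sets between 0.04 and 0.33.

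Probe sets of a gene were also compared with each other. In 16 genes with at least 2 probe sets at a mean of 6 or more, the log2 fold changes had 1 sign in 10, and the difference between Dp(11)17/+ replicates 3 and 2 had 1 sign in 13. Probe sets of a gene share the RNA of the same mouse and are no replicates. Of all 76 probe sets, 2 had an unadjusted p under 0.05, those of Unc13a and the dimmest of Syn3, against 2.82% of all probe sets.

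The counts differed when single mice were left out. Without Dp(11)17/+ replicate 2, 4 members had an unadjusted p under 0.05 (Doc2b, Stx1a, Rims1 and Rims2), against 8.15% of all genes, and 7 did not overlap between groups, against 24.9%. Unc13a was then no longer under 0.05, at 0.0667. In the 4 named members replicate 2 was the only Dp(11)17/+ mouse on its side of the +/+ mice. Leaving it out parts their groups by construction. Dp(11)17/+ replicate 2 by itself lay outside the range of the +/+ mice in 22 members, against 48.8% of all genes. Without Dp(11)17/+ replicate 1, 2 members had an unadjusted p under 0.05 (Syn2 and Unc13a), against 2.64% of all genes. Without Dp(11)17/+ replicate 3 it was 1 member (Vamp1), against 2.15%. Leaving out +/+ replicate 1 gave 1 member (Syngr3), against 4.93%, leaving out +/+ replicate 2 gave 0, against 2.79%, and leaving out +/+ replicate 3 gave 2 (Slc17a7 and Unc13a), against 2.26%. With a score of regional markers per mouse as a covariate, limma called 0 of the 29 as well. The log2 fold changes of Doc2b and Stx1a took the opposite sign, 0.12 and -0.29 (unadjusted p = 0.602 and 0.335 by limma). So did those of Syngr1, Sv2a, Rph3a, Cplx1, Cplx2, Rims2 and Nrxn3. The score, which includes the dentate and CA1 markers, was -0.03, -2.13 and 2.55 in Dp(11)17/+ replicates 1 to 3. In +/+ replicates 1 to 3 it was -1.58, -1.02 and -1.70. With 6 arrays and a score so uneven between genotypes, the fit cannot tell the 2 apart.

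Other genes of transmitter release were read from a list of 61, of which 56 had a probe set annotated to them alone. Limma called 0 of the 56 over all probe sets, 23 were higher and 33 lower, and the median log2 fold change was -0.04. Syt7, a slow calcium sensor, was the 1 gene of this list with an unadjusted p under 0.05 (0.0222), or 1.79% of the 56 against 3.17% of all genes. It had log2 values of 9.74, 9.88 and 9.79 in Dp(11)17/+ mice, against 9.67, 9.49 and 9.44 in +/+ mice, without overlap, and its log2 fold change was 0.27 (SE 0.09). In 2 of the 56 genes Dp(11)17/+ lay wholly above (Syt7 and Cadps2) and in 1 wholly below (Scamp1), against 2.7% and 5.59% of all genes. The 5 genes with the next smallest p were lower. Amph, which recruits dynamin to endocytic sites, had a log2 fold change of -0.24 (SE 0.11), Napb, a cofactor that takes SNARE complexes apart, of -0.24 (SE 0.12), and the ATPase Nsf, its partner, of -0.19 (SE 0.11). For Ppfia2, a liprin scaffold of the active zone, it was -0.44 (SE 0.25), and for Rab27b, a GTPase of secretory vesicles, -0.23 (SE 0.13). Of the 9 genes of vesicle endocytosis measured, 7 were lower and 2 higher, where 58.3% of all genes were lower. Their median was -0.12, against -0.02 over all genes. In most of the 9 the highest value was in +/+ replicate 3, which was highest in 26.1% of all genes.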

How the data were processed

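RNA of hippocampus from 3 Dp(11)17/+ and 3 +/+ mice was measured on 1-colour Affymetrix arrays, 1 per mouse. The authors summarised each probe set with RMA, which gives log2 values, per the submitters' processing notes; no version is named there. The labels' extraction text lists organs other than hippocampus, and its labelling text speaks of pools where the records name single mice; the records were followed. Values were used as deposited. After 64 control probe sets were left out, 45037 were tested, of which 34945 had 1 gene symbol, 932 several and 9160 none in the platform annotation. A gene was read by its brightest probe set. Dp(11)17/+ was compared with +/+ by limma 3.58.1 in R 4.3.3 (lmFit and eBayes without trend, no covariate, two-sided, 7.11 degrees of freedom), with Benjamini-Hochberg adjustment over all 45037 probe sets and a threshold of 0.05. The fit was tested on simulated data. Arrays give no counts, and their number limits the precision.

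Named were all 29 genes, with values in every mouse for the 12 with the smallest p and the 4 with the widest range, the 6 other release genes with the smallest p, and Rai1, Xist, Eif2s3y and Kdm5d as checks. The rule also takes the 2 widest genes of each marker list, of which 5 are printed (Wfs1, Lct, Pvalb, Npy and Penk). Those 5, Rims2, Syt2 and Ppp1r1b in detail, the mouse orders and the motifs were chosen after values were seen. Members, lists and tests were chosen with earlier results of these data known. The alternatives were other scalings, a filter on dim probe sets, other variance models, other probe set choices, a regional score as covariate (mean of striatal and thalamic marker means minus mean of CA1 and dentate ones), and mice left out. Chromosomes and gene order came from a gene table of GRCm38.p6.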

Additional observations from a re-analysis of the deposited data

How the results depend on the processing

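Limma called 0 of the 29 genes, and 0 of the 56 other release genes, in the fit of all mice and in each alternative that gives a test. The median log2 fold change of -0.04 lay between -0.13 and 0.06 in the alternatives that keep more than 1 Dp(11)17/+ mouse. With Dp(11)17/+ replicate 2 as the only mouse of its genotype, effect sizes alone were taken: the median was -0.24, and 22 of the 29 genes lay outside the range of the +/+ mice, against 48.8% of all genes. Leaving out 1 mouse at a time, 0 to 4 genes had an unadjusted p under 0.05 and 1 to 7 did not overlap between groups. The 7 came without Dp(11)17/+ replicate 2, where 24.9% of all genes did not overlap, 6 without Dp(11)17/+ replicate 3 (15.6%) and 4 without +/+ replicate 1 (21.1%). The count was 2 without Dp(11)17/+ replicate 1 (16.2%) and without +/+ replicate 3 (15.5%). Fewer mice overlap less often by construction.

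Log2 fold changes of the opposite sign were those of uncalled genes, and the cause was not tested. They were Cplx1 at -0.013 with quantile normalization again, and Slc17a7 at -0.0023 and Cplx1 at -0.0012 with centring. With array weights they were Syn1 at 0.030, Syn3 at -0.011, Syp at 0.0070, Rph3a at -0.0076, Cplx1 at -0.041 and Pclo at 0.038. With the probe set of largest variance they were Syt1 at 0.65, Syt4 at 0.11, Snap25 at 0.12, Cplx1 at -0.073, Cplx2 at 0.38 and Pclo at 0.20. With the mean of all probe sets of a gene, values without a test, they were the following 8: Syn3 at -0.023, Syp at 0.025, Syngr1 at -0.056, Syt1 at 0.24, Snap25 at 0.019, Cplx1 at -0.034, Cplx2 at 0.031 and Pclo at 0.028. With the regional score they were Syngr1 at -0.18, Sv2a at -0.030, Doc2b at 0.12, Rph3a at -0.0089, Stx1a at -0.29, Cplx1 at -0.23, Cplx2 at 0.021, Rims2 at -0.17 and Nrxn3 at -0.085. With each mouse left out in turn, 21 genes changed sign at least once. Syn1 ran between -0.20 and 0.079, Syn3 between -0.17 and 0.36, Syp between -0.14 and 0.028, Syngr1 between -0.13 and 0.19, and Slc17a7 between -0.17 and 0.28. Syt1 ran between -0.12 and 1.6e-05, Syt2 between -0.49 and 0.029, Syt4 between -0.29 and 0.14, Syt11 between -0.13 and 0.021, and Rph3a between -0.082 and 0.13. Vamp1 ran between -0.75 and 0.040, Vamp2 between -0.25 and 0.029, Stx1a between -0.024 and 0.93, Cplx1 between -0.24 and 0.13, and Cplx2 between -0.24 and 0.0091. Rims2 ran between -0.084 and 0.42, Bsn between -0.00069 and 0.25, Pclo between -0.13 and 0.063, Rab3a between -0.065 and 0.0078, Nrxn2 between -0.013 and 0.37, and Nrxn3 between -0.017 and 0.23. Syn2, Syngr3, Sv2b, Rims1 and Unc13a kept their sign in each alternative that gives a test. No paired analysis was possible because the replicate numbers were given in the order of the records and pair no mice.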

Other observations

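Some genes of transmitter release outside the 29 had wide ranges; they are named here after their values were seen. Of the 56 measured, 11 had a range of at least 1 log2 unit over the 6 arrays, against 6.31% of all genes, and in all 11 the highest or the lowest value was in Dp(11)17/+ replicate 2 or 3, against 81.9% of the 1148 genes with such a range. These 2 mice held both ends in 7 (63.6%), against 30.7% of the 1148. The lowest was in Dp(11)17/+ replicate 2 in 9, against 30.7% of the 1148, and the highest in Dp(11)17/+ replicate 3 in 6, against 38.3%. Syt9, a calcium sensor, had log2 values of 5.12, 3.39 and 6.96 in Dp(11)17/+ mice, against 4.06, 5.03 and 4.05 in +/+ mice, an 11.9-fold range. Slc17a6, the glutamate transporter of thalamic neurons, had log2 values of 6.54, 5.81 and 8.82 in Dp(11)17/+ mice, against 6.97, 7.94 and 5.95 in +/+ mice. Unc13c, a Munc13 of cerebellum and some other regions, ran at 7.27, 4.57 and 7.66 in Dp(11)17/+ mice, against 5.63, 7.38 and 5.86 in +/+ mice. Rims3, a short RIM, ran at 7.14, 5.63 and 8.57 in Dp(11)17/+ mice, against 7.05, 7.21 and 6.32 in +/+ mice. The log2 fold changes of these 4 genes lay between 0.10 and 0.78 with unadjusted p between 0.371 and 0.900 by limma. The part of regional composition was not tested.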
